A study of Mus musculus with 22 samples.

Results

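The 7 miRNA entries described here are mmu-miR-6378, mmu-miR-6351, mmu-miR-452-5p, mmu-miR-450a-2-3p, mmu-miR-1931, mmu-miR-1945 and mmu-miR-6418-5p, written below without the species prefix except where a member is first described, out of 1247 mouse miRNAs with probes on the array. They were named beforehand as dim entries whose signal was higher after 48 h of the high cyclosporin A dose, so their own differences at that dose and time are given as a description, with no test, and support nothing. The study exposed primary hepatocytes of the C57Bl6 mouse strain for 24 or 48 h to 0.5% v/v DMSO, or to 10 or 50 µM cyclosporin A, and hybridised their total RNA to 1-colour Agilent miRNA arrays. All groups were cultured in the same supplemented medium with serum, and the controls received the solvent that carried the drug. The treatment note in the labels speaks of HepG2 cells, a human liver line, while the sample labels name mouse hepatocytes. Of the 22 arrays used here, 5 were of DMSO, 3 of 10 µM and 2 of 50 µM at 24 h, and 6 were of DMSO, 3 of 10 µM and 3 of 50 µM at 48 h. The labels call the replicates biological without saying which hepatocyte isolations they came from, so any spread given between arrays may hold both technical and biological parts.

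A miRNA is a short RNA cut from a hairpin precursor. It guides the silencing complex to messenger RNAs that pair with its seed, bases 2 to 8 from its 5′ end. Either arm of the hairpin (5p or 3p) can yield a mature strand, and hairpins that lie close together are often transcribed as 1 precursor, so cluster mates can be read beside a member. In liver the best known miRNA is miR-122-5p, which makes up much of the miRNA of a hepatocyte. Cyclosporin A is an immunosuppressant that inhibits calcineurin and, in hepatocytes, the export of bile salts.

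The sequences of the members are shown because they tell whether the entries could be copies of one another, which a probe might not separate. RefSeq's table for GRCm38.p6 gave mature sequences for 6 of the 7, written here 5′ to 3′ with the seed in capitals.
miR-6351: uAGCGUUGcucagggagcacaug
miR-452-5p: uGUUUGCAgaggaaacugagac
miR-450a-2-3p: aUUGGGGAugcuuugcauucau
miR-1931: aUGCAAGGgcuggugcgauggc
miR-1945: uCUUCGCGgguacugucgggac
miR-6418-5p: uCAGGGGAagggaagagaugc
For miR-6378 the same table gave the Mir6378 hairpin, which is 107 bases long.
Mir6378 hairpin: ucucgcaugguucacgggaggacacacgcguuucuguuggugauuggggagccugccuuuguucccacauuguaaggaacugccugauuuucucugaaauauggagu
The 6 mature sequences carried 6 distinct seeds. Among the other entries of the array with a sequence, miR-6239 alone carried the seed of a member, that of miR-6351, and it was above background on 2 of 22 arrays. The GC content of the 6 members ranged from 40.9 to 63.6%, with a median of 56.8%, beside a median of 50.0% and quartiles of 41.7 and 59.1% over the 1017 array entries with a sequence.

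The members came from 6 chromosomes of GRCm38.p6. The Mir6378 hairpin lay at chr3:34922545-34922651 on the minus strand and within the span of no other annotated gene. The mature miR-6351 lay at chr1:73855553-73855575 on the minus strand, within the span of the long non-coding RNA 6030407O03Rik. The mature miR-452-5p lay at chrX:72262271-72262292 on the minus strand, within the span of Gabre, which encodes a GABA receptor subunit. The mature miR-450a-2-3p lay at chrX:53048304-53048325 on the minus strand, in the cluster that also holds miR-322, miR-503, miR-351 and miR-542. The mature miR-1931 lay at chr10:93162879-93162900 on the plus strand, within the span of the kinase gene Cdk17. The mature miR-1945 lay at chr16:11254381-11254402 on the minus strand, within the span of no other annotated gene. The mature miR-6418-5p lay at chr5:137529551-137529571 on the minus strand, within the span of Gnb2, which encodes a G protein beta subunit. Only miR-450a-2-3p and miR-452-5p shared a chromosome, and they lay in separate parts of it.

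Which array belongs to which dose decides every value that follows. The deposited table of log2 values and the array files did not carry the same names: each table column followed 1 array file with a rank correlation of 1, and for 16 of 22 columns that file was deposited under another sample, always of the same time and the same numbered experiment. For 8 cyclosporin A arrays the 2 names gave different doses, and for 8 DMSO arrays they gave different replicates and control series. The labels place each array in 1 of 2 control series. All arrays named 50 µM shared a series, all named 10 µM were of the other, and DMSO at each time held both. Dose therefore went with control series among the treated arrays, and the part of the series in the values was not tested. The values here use the names of the value table, and nothing in the labels or files settles which naming is right. Of the 3 arrays that the table names 50 µM at 48 h, 1 was filed as 50 µM and 2 were filed as 10 µM. All 3 were on slide 1, with 1 array of 10 µM and 1 of DMSO at 48 h.

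Levels are log2 of the background-corrected spot signal, averaged over the spots of the brightest probe of a miRNA and divided by each array's 75th percentile over the 281 probes above background on all arrays. A level of 0 is therefore that percentile, and values below a floor of -4.41, the median over arrays of the lowest signal above background, were set to it. A miRNA counted as above background on an array where at least 0.5 of its spots carried the scanner's flag for that. The 290 miRNAs above background on at least 3 arrays entered the fits. All 7 members were among them, but only miR-6378 was above background on every array: miR-6351 and miR-6418-5p passed with 3 arrays, miR-1931 and miR-1945 with 5, miR-450a-2-3p with 6 and miR-452-5p with 9. Without the 3 arrays of 50 µM at 48 h, miR-6351 and miR-6418-5p would have had 1 such array each and would not have entered, so their passing is itself tied to the group in which they were high.

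mmu-miR-6378 was the brightest of the 7 and the one measured in full. Its level was 0.10, 0.21 and 0.62 on the 3 arrays of 50 µM at 48 h, against a lowest of -2.14, a median of -1.91 and a highest of -1.59 on the 6 DMSO arrays of that time. Before scaling the 50 µM signals were 357.5, 390.2 and 928.9, against 69.9 to 97.3 in DMSO. Every 50 µM array stood above every DMSO array on both scales, and the group means differed by 2.19 ± 0.16 on the log2 scale (SE from the fit), a 4.57-fold higher level. The means were 0.31 ± 0.27 at 50 µM and -1.88 ± 0.19 in DMSO (SD, n = 3 and 6). In a culture such as this, a larger share of cells of a type and more of an RNA per cell cannot be told apart.

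The means of miR-6378 followed an order of dose at 48 h. The arrays of 10 µM read -1.14, -1.47 and -1.57, also above every DMSO array, and their mean of -1.39 ± 0.23 was 0.49 ± 0.16 higher than DMSO, or 1.40-fold. The level at 50 µM was 1.70 ± 0.18 higher than at 10 µM, or 3.26-fold, with no overlap. The gap between 10 µM and DMSO was thus small beside the gap between the doses, and the lowest array of 10 µM lay 0.011 above the highest DMSO array. Before scaling the 10 µM signals ranged from 92.7 to 121.9, against 69.9 to 97.3 in DMSO, and overlapped. The value table also had overlap, with 5.17 to 5.74 at 10 µM against 4.77 to 5.51 in DMSO.

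At 24 h miR-6378 stood in the same order of means with smaller steps. The 5 arrays of DMSO read -1.86, -1.98, -2.42, -2.20 and -2.52, the 3 of 10 µM read -1.62, -1.75 and -1.94, and the 2 of 50 µM read -1.37 and -1.22. Both 50 µM arrays lay above all DMSO arrays, with a difference of 0.90 ± 0.19, while 1 of the 10 µM arrays lay below the highest DMSO array and the difference was 0.43 ± 0.16. Under 50 µM the level was 1.61 ± 0.20 higher at 48 h than at 24 h, or 3.04-fold. In DMSO the corresponding difference between times was 0.31 ± 0.14, and the 48 h and 24 h arrays overlapped.

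**Figure D1:**
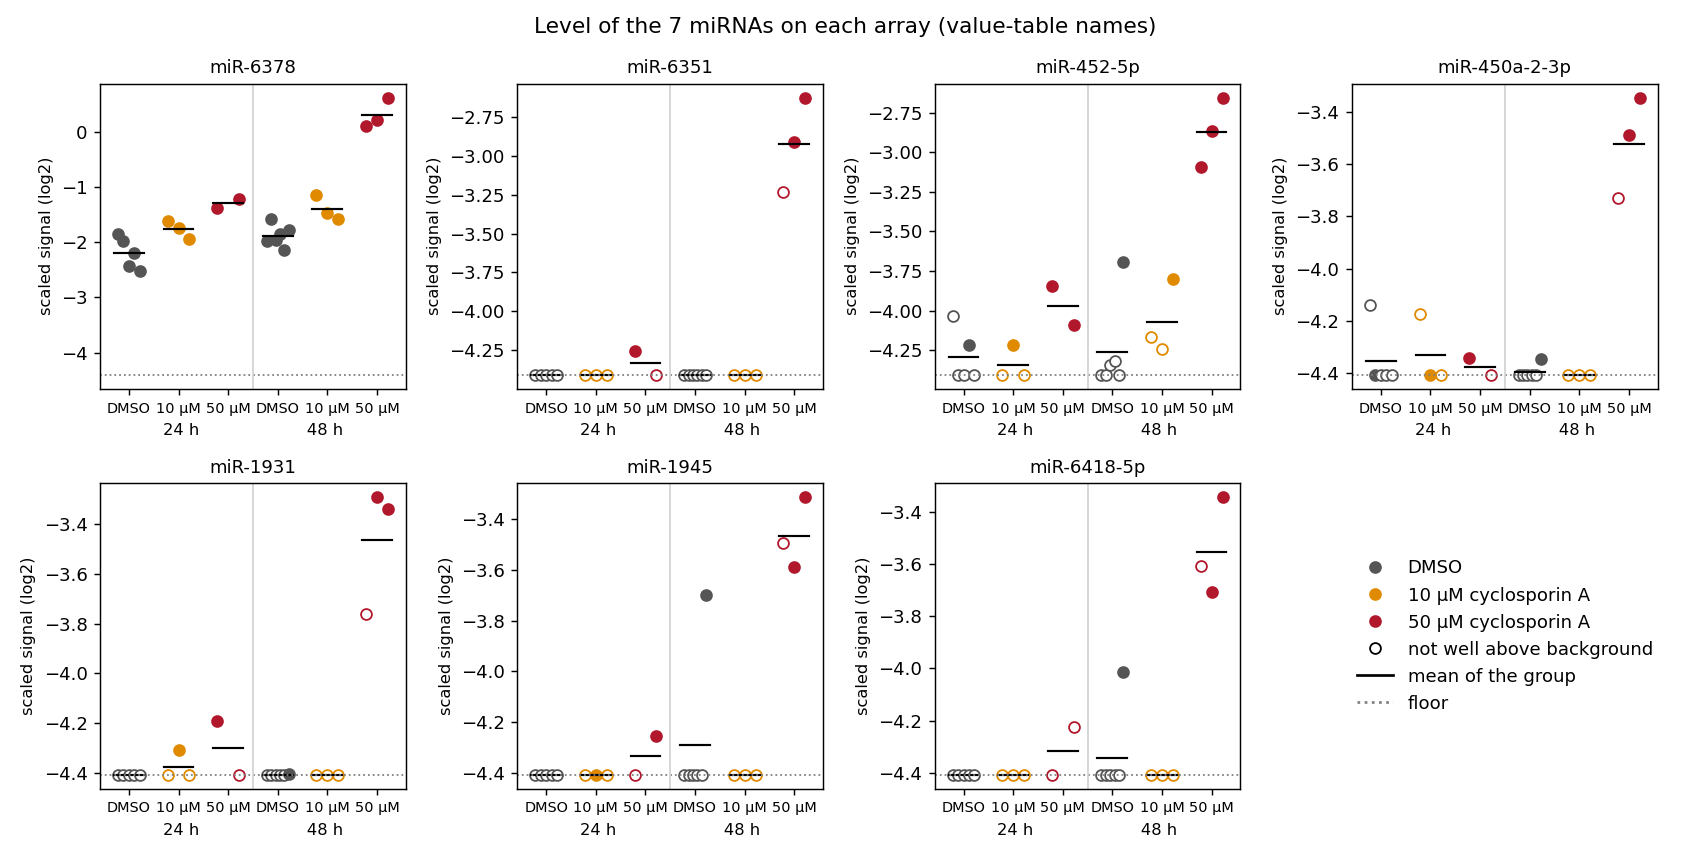
Level of each miRNA on every array (vertical axis, log2 of the scaled signal, own range in each panel) by dose and time (horizontal axis, names of the value table). Points are arrays, open where the miRNA was not well above background, black bars are group means and the dotted line is the floor at -4.41. The 3 arrays of 50 µM at 48 h are the highest in every panel, and miR-6378 alone is measured on all arrays.

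mmu-miR-452-5p, whose hairpin lies in the Gabre locus beside that of miR-224, was the next best measured. At 48 h it read -3.09, -2.86 and -2.65 under 50 µM, against a lowest of -4.41, a median of -4.38 and a highest of -3.69 in DMSO, and was above background on 3 of 3 and 1 of 6 arrays. The groups did not overlap, and the difference was 1.39 ± 0.15. At 10 µM the levels were -4.17, -4.24 and -3.80, which lay within the DMSO range, with a difference of 0.19 ± 0.15.

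At 24 h both 50 µM arrays had miR-452-5p above background, at -3.85 and -4.09, against 1 of 5 DMSO arrays, which read -4.03, -4.41, -4.41, -4.22 and -4.41. The lower of the 50 µM arrays lay under the highest DMSO array, and the difference was 0.33 ± 0.18. From 24 to 48 h under 50 µM the difference was 1.10 ± 0.20, or 2.14-fold, with all 5 arrays above background.

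mmu-miR-6351, in the 6030407O03Rik span, was the member with the emptiest controls. Its levels at 48 h were -3.23, -2.91 and -2.63 under 50 µM, and all 6 DMSO arrays and all 3 arrays of 10 µM were at the floor, with 0 of them above background. The first of the 50 µM arrays was itself not well above background. The level at 50 µM was at least 2.62-fold higher than in DMSO and at least 2.20-fold higher than at 10 µM at 48 h. For these bounds each array of the lower group was set to the higher of the floor and the lowest signal above background there. The first 50 µM array entered at its own level, so the bounds are not strict. Unscaled, the 50 µM signals were 35.5, 44.6 and 97.9, against 2.41 to 10.9 in DMSO, so they did not overlap before scaling either. At 24 h 1 of the 2 arrays of 50 µM was above background, at -4.26, just over the floor.

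mmu-miR-1931, in the Cdk17 span, read -3.76, -3.29 and -3.34 under 50 µM at 48 h, and 5 of the 6 DMSO arrays were at the floor with the last at -4.40. The difference was 0.94 ± 0.08, a size that the floor sets for most of the arrays. The floor also lowers this SE, which pools the spread of 6 groups, some of them with all arrays tied at the floor. From the spread of the arrays in the 2 groups alone the SE was 0.15. In the same way it was 0.11 for miR-450a-2-3p, 0.14 for miR-1945 and 0.13 for miR-6418-5p, described below. Its unscaled signals were 24.7, 34.4 and 59.8 under 50 µM, against a lowest of 4.12, a median of 5.43 and a highest of 15.8 in DMSO, again without overlap. At 48 h it was above background on 1 of 6 arrays of DMSO, 0 of 3 of 10 µM and 2 of 3 of 50 µM.

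mmu-miR-450a-2-3p is the 3p strand of the second miR-450a hairpin in the X chromosome cluster. It read -3.73, -3.49 and -3.34 under 50 µM at 48 h, against 5 DMSO arrays at the floor and 1 at -4.35, a difference of 0.88 ± 0.08. The unscaled signals were 25.2, 29.98 and 59.6 under 50 µM, against 6.83 to 16.4 in DMSO. All 3 arrays of 10 µM at 48 h were at the floor. At 24 h it was above background on 1 array of each group, and the unscaled signals were 8.28 to 12.6 in DMSO, 8.30 to 15.1 at 10 µM and 11.98 and 14.3 at 50 µM, which overlapped.

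mmu-miR-1945 read -3.49, -3.59 and -3.31 under 50 µM at 48 h, against 5 DMSO arrays at the floor and 1 at -3.70. The lowest array of 50 µM and that DMSO array were 0.11 apart, the narrowest gap of the 7, and the difference in means was 0.83 ± 0.12. Unscaled, the 50 µM signals were 29.7, 28.0 and 60.9, against 3.52 to 25.7 in DMSO.

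mmu-miR-6418-5p, from the Gnb2 span, read -3.61, -3.71 and -3.34 under 50 µM at 48 h, against 5 DMSO arrays at the floor and 1 at -4.01. The difference was 0.79 ± 0.09, and the unscaled signals were 27.4, 25.8 and 59.6 under 50 µM, against 6.04 to 20.7 in DMSO. It was above background on 3 arrays in all, 2 of them of 50 µM at 48 h and 1 of DMSO at 48 h.

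Across the 7 the difference between 50 µM and DMSO at 48 h had a median of 0.94 and ranged from 0.79 to 2.19, beside a median of 0.13 over all 290 miRNAs tested. On all 7 every array of 50 µM lay above every array of DMSO, which held for 16.6% of the 290. That share is background only, since the members were chosen on this contrast. By size of the difference miR-6378 ranked 5 of 290, miR-6351 14, miR-452-5p 19, miR-1931 45, miR-450a-2-3p 48, miR-1945 52 and miR-6418-5p 59. Without scaling, the groups were also separate on all 7 members and on 18.6% of the 290.

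The values at the other dose and the earlier time were smaller, but their size at 24 h depended on the floor. Between 10 µM and DMSO at 48 h the median of the 7 was -0.00 and ranged from -0.12 to 0.49, with a median of 0.02 over the 290. Only miR-6378 was separate there, 1 of 7 beside 2.07% of the 290, and 0 of 7 were on unscaled signals or in the value table. Between 50 µM and DMSO at 24 h the median was 0.09 and the range -0.02 to 0.90, with a median of 0.11 over the 290. That median of the 7 was 0.90 with the floor divided by 4, 0.65 with quantile normalisation and 2.17 in the value table, where the medians for 50 µM against DMSO at 48 h were 1.96, 1.46 and 3.69. Again miR-6378 alone was separate, beside 15.2% of the 290, although on unscaled signals 5 of 7 were separate beside 16.2%. Between 10 µM and DMSO at 24 h the median was 0.00, 0 of 7 were separate and 0.69% of the 290 were. The comparisons at each time share their DMSO arrays.

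Set against the other groups of drug-treated cells, 50 µM at 48 h was again the highest. On all 7 members its arrays lay above those of 10 µM at 48 h, with a median difference of 0.94, which held for 29% of the 290. On all 7 they also lay above those of 50 µM at 24 h, with a median difference of 0.87, which held for 24.5% of the 290. Unscaled signals were separate on 7 of 7 there too, but the value table had 5 of 7. In that table the lowest 48 h array of miR-1931 read 3.48, against a highest of 3.52 at 24 h. For miR-6418-5p these were 2.23 and 2.43. These comparisons use the same 3 arrays as the choice of the members did.

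**Figure D2:**
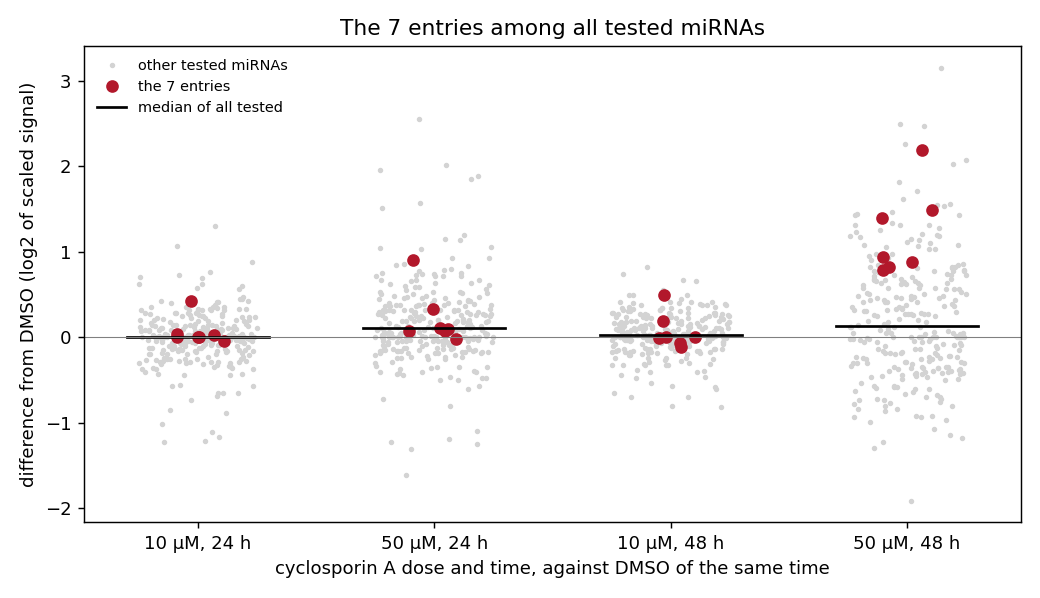
Difference from DMSO of the same time (vertical axis, log2 of scaled signal) for each of the 290 tested miRNAs (grey points) and the 7 members (red points), by dose and time (horizontal axis), with a black bar at the median of all tested. The members lie between 0.79 and 2.19 at 50 µM and 48 h, and between -0.12 and 0.90 elsewhere.

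By the detection flags most members were seen on few arrays outside 50 µM at 48 h. At 24 h the arrays of DMSO had 1 or 2 members above background, those of 10 µM had 1, 5 and 1, and those of 50 µM had 5 and 3. At 48 h, 5 of the 6 DMSO arrays had 1, which was miR-6378, and the sixth had 6, all but miR-6351. The arrays of 10 µM at that time had 1, 1 and 2, and those of 50 µM had 2, 7 and 7.

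Array-wide measures are given beside these counts. At 48 h the number of members above background was highest where most miRNAs were detected. The arrays with 400, 317 and 334 detected had 7, 7 and 6 members, and the other arrays of that time, with 201 to 290, had 1 or 2. At 24 h the order was less regular. The DMSO arrays with 325 and 305 detected had 1 and 2 members, while the arrays of 50 µM and 10 µM with 5 members had 291 and 305. At 48 h the 3 arrays of 50 µM at 48 h had 206, 317 and 400 miRNAs called detected by the scanner software, against 236 to 334 in DMSO, and the sixth DMSO array had the 334. The scaling percentile was 334, 336 and 605 units on the 50 µM arrays, against 252 to 355 in DMSO, and 605 was the highest of all 22. Spots marked as outliers made up 9.24, 8.44 and 4.21% of the 50 µM arrays, against 3.12 to 8.40% in DMSO. The mean of the negative control spots had a median of 2.95 units over the 22 arrays. It was 215.3 on 1 of the 2 arrays of 50 µM at 24 h and 33.7 on the first DMSO array of 48 h. On the 3 arrays of 50 µM at 48 h it was 2.71 to 4.51. The part of detection, brightness, outlier spots and negative controls in the members' values was not tested. On the first 50 µM array the lowest signal above background was -3.26 after scaling, so that miR-6351 at -3.23 was near it and 4 members lay under it.

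Over all 1247 entries, 39 were above background on at least 2 of 3 arrays of 50 µM and at most 1 of 6 of DMSO at 48 h, and 6 of the 39 were members. The reverse, at most 1 of 3 and at least 5 of 6, held for 10. For 10 µM at 48 h the first count was 6, with 0 members.

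**Figure D3:**
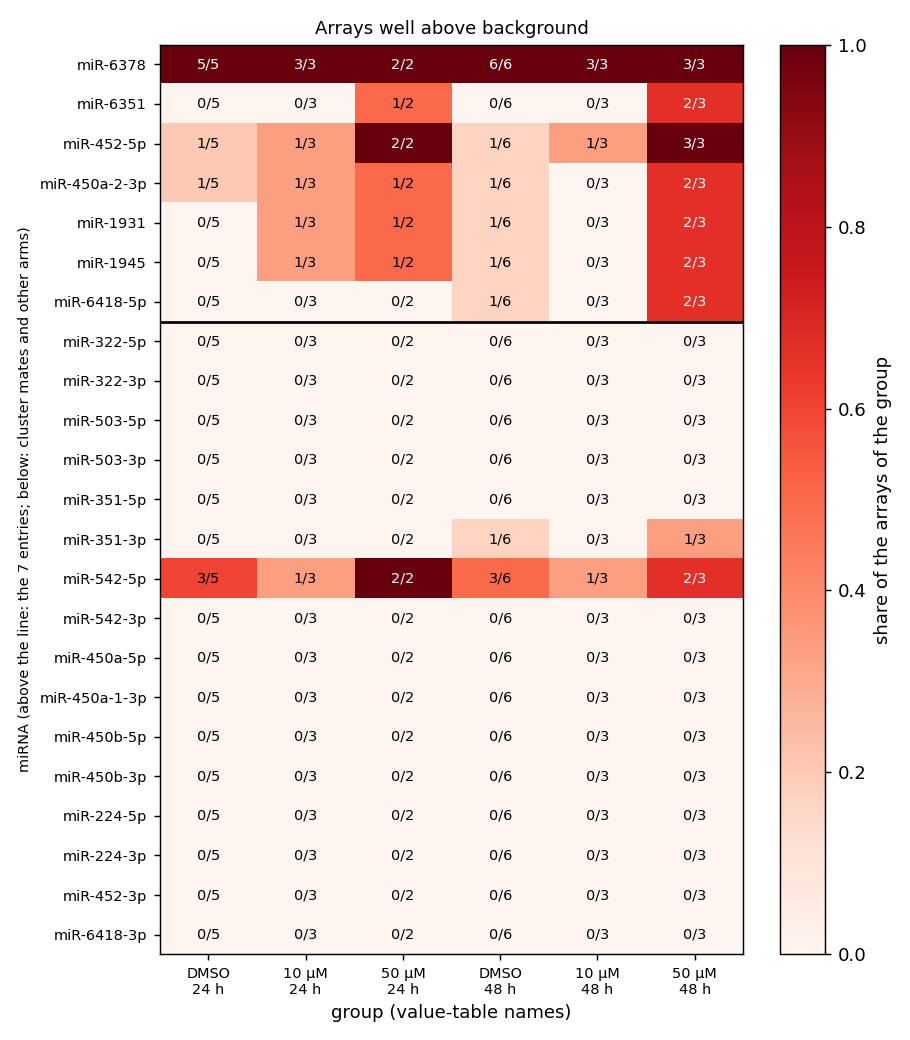
Number of arrays with signal well above background out of the arrays in each group (colour, share of arrays), for the 7 members above the line and the 16 cluster mates and other arms below it (vertical axis), by dose and time (horizontal axis, names of the value table). Members other than miR-6378 are on 2 or 3 of 3 arrays at 50 µM and 48 h, and 14 of the 16 mates are on none.

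The array held 16 probes for the 7 members, each printed in many copies, and they did not all show the difference. For miR-452-5p, miR-1931 and miR-1945 both probes were higher on all arrays of 50 µM than on all of DMSO at 48 h, with differences of 1.39 and 1.36, of 0.94 and 0.83, and of 0.83 and 0.75. The signals of the paired probes over the 22 arrays had correlations of 0.994, 0.996 and 0.995 as a description, where both probes read the same RNA on the same array. The difference for these members therefore did not rest on 1 probe.

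For miR-450a-2-3p there were 4 probes. The bright pair gave 0.88 and 0.99, with a correlation of 0.986 over the 22 arrays. The other pair was above background on 0 arrays and correlated with the bright pair at 0.06 to 0.66.

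For miR-6378, miR-6351 and miR-6418-5p only the brighter of 2 probes was separate on the scaled values, and the dimmer one was at the floor on all 22 arrays. Below the floor the dimmer probe of miR-6378 still ranged from 5.19 to 15.3 units under 50 µM, against 0.91 to 3.67 in DMSO at 48 h. The dimmer probe of miR-6418-5p ranged from 8.98 to 24.6, against 0.50 to 7.58, and that of miR-6351 from 0.47 to 6.88, against -0.34 to 1.06. The first pair of ranges did not overlap, nor did the second, while those of miR-6351 did. In all, 11 of 16 probes were separate on the scaled values and 5 were at the floor in both groups.

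**Figure D4:**
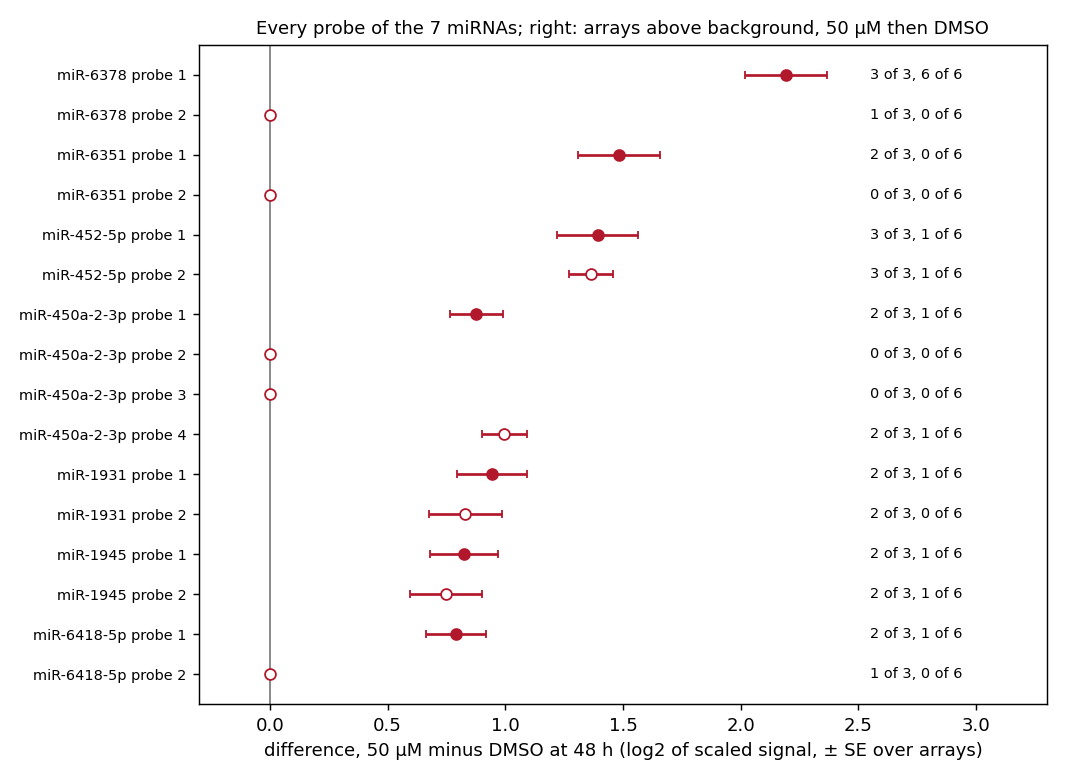
Difference between 50 µM and DMSO at 48 h for each of the 16 probes (horizontal axis, log2 of scaled signal), filled where the probe stands for its miRNA in the text, with bars of 1 SE from the spread of the arrays in the 2 groups. The figures at the right give arrays above background for 50 µM and then DMSO. 11 probes lie between 0.75 and 2.19 and 5 lie at 0.

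The spread within an array was small beside the gap for the brightest member. Over the 20 spots of the main miR-6378 probe the SD was 36.5, 40.7 and 50.6 units on the 3 arrays of 50 µM at 48 h, around means of 357.5, 390.2 and 928.9.

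The names that the array files carry gave another result. With those names miR-6378 averaged -1.88 ± 0.19 in DMSO, -0.10 ± 0.92 at 10 µM and -0.98 ± 0.94 at 50 µM at 48 h (SD, n = 6, 3 and 3), so the dose with the higher mean was 10 µM. The median difference of the 7 between 50 µM and DMSO at 48 h was then 0.22 and 1 of 7 was separate, and that between 10 µM and DMSO was 0.73. The 3 bright arrays were of cyclosporin A at 48 h under both namings, and DMSO at 48 h held the same 6 arrays. With both doses pooled at 48 h, which no naming alters, the median difference from DMSO was 0.47.

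**Figure D5:**
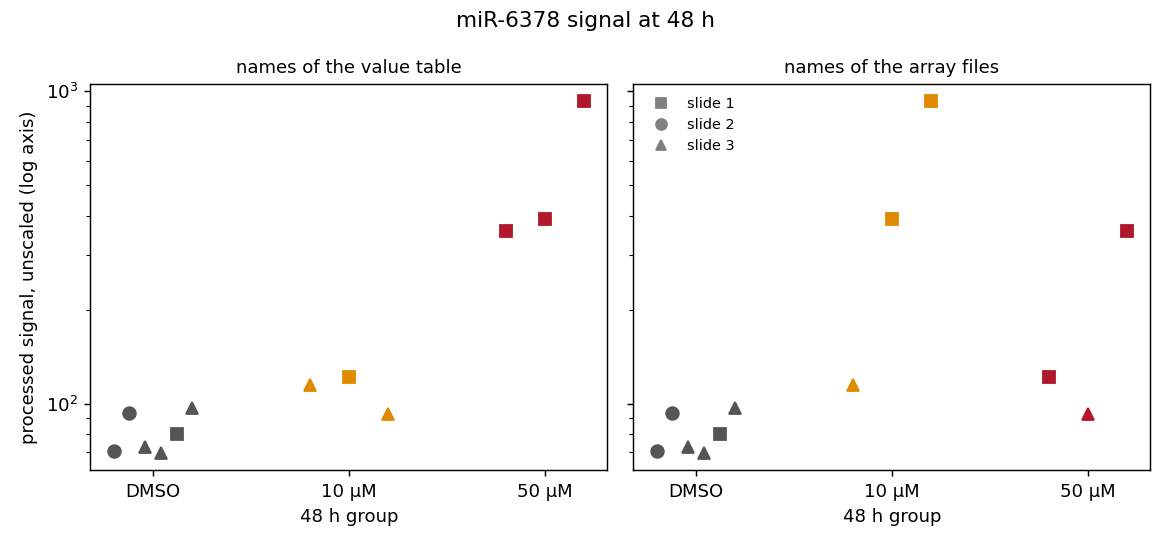
Unscaled signal of miR-6378 (vertical log axis, scanner units) on the 12 arrays of 48 h by dose (horizontal axis), with the names of the value table at the left and those of the array files at the right; the symbol gives the slide. The 3 arrays between 357.5 and 928.9 are the 50 µM group at the left, and at the right 1 is in the 50 µM group and 2 are in the 10 µM group.

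The values within the one slide that held all 3 arrays are given next. Within slide 1 at 48 h the array of DMSO read -2.14 for miR-6378, that of 10 µM -1.47 and the 3 of 50 µM 0.10 to 0.62, and the median difference of the 7 between 50 µM and DMSO was 0.94. Since slide 1 held all arrays of 50 µM at 48 h and 1 of each other 48 h group, that comparison rests on a single control array.

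The authors' value table had separate groups for 6 of the 7. Its columns held the same values at the 200 highest ranks, and its lowest value is the log2 of 0.5. miR-6378 read 6.76, 6.84 and 7.65 under 50 µM at 48 h, against 4.77 to 5.51 in DMSO. miR-6351 read 3.91, 3.44 and 3.67 under 50 µM, against 0.70 on 1 DMSO array and the table's lowest value on the other 5. miR-1945 was the exception, with 4.40, 3.71 and 4.08 under 50 µM and a highest DMSO array of 3.80, although the other 5 DMSO arrays were at the lowest value and its means still differed by 4.26. No member was at the lowest value on any array of 50 µM at 48 h.

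The cluster mates and other arms of the members were mostly not detected. Of 16 listed, 14 were above background on 0 of 22 arrays, with no signal over 9.66 units. They included 10 of the 12 mates of miR-450a-2-3p on the X chromosome, among them miR-322-5p and miR-503-5p, which are known for restraining the cell cycle. All 3 of the Gabre list (miR-224-5p, miR-224-3p and miR-452-3p) and the other arm of miR-6418 were also among them. The member and its close relative from the first hairpin are shown for comparison, with seeds in capitals.
miR-450a-2-3p: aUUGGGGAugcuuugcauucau
miR-450a-1-3p: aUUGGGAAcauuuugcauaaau
They are identical at 16 of 22 positions, and miR-450a-1-3p was above background on 0 arrays.

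Of the mates, miR-542-5p was above background on 12 arrays and was the one that could be tested, with the sequence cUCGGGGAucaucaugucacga, while miR-351-3p was on 2. At 48 h miR-542-5p read -3.93, -3.46 and -3.24 under 50 µM, against a lowest of -4.41, a median of -4.26 and a highest of -2.78 in DMSO, and the groups overlapped. The difference of 0.46 ± 0.31 did not pass the test (limma, Benjamini-Hochberg adjusted p = 0.234 over the 290, where 37.9% of miRNAs were called). It was called by limma in 0 of the 4 comparisons with DMSO, where the shares of all 290 called were 1.03% for 10 µM at 48 h, 3.79% for 50 µM at 24 h and 0% for 10 µM at 24 h. Its unadjusted p was 0.152 at 50 µM and 48 h and 0.251 or more in the other comparisons with DMSO. Without the sixth DMSO array, its highest, it was called at that dose and time. In the value table its mean at 48 h was instead lower under 50 µM. It was 0.41 ± 1.26 there and 1.65 ± 1.33 in DMSO (SD, n = 3 and 6), with 1 array of each group at the table's lowest value. The sign of its difference thus depended on the processing.

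Over the 22 arrays the correlations between pairs of members ranged from 0.836 to 0.987. They are given as a description only. The members were chosen as high in the same group, and all share the arrays, the scaling and the floor, so high correlations follow from the choice. By the same measure the miRNAs outside the 7 most like miR-6378 were miR-770-3p at 0.948, miR-494-3p at 0.910 and miR-6243 at 0.890. Those most like miR-452-5p were miR-6391 at 0.978, miR-490-5p at 0.945 and miR-1894-3p at 0.943. Of these, miR-494-3p and miR-6243 were far brighter than any member, at 3.33 and 6.56 under 50 µM and 1.89 and 4.29 in DMSO at 48 h.

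The cell type named in the labels was checked against its markers. All 4 hepatocyte markers were above background on all 22 arrays, with miR-122-5p at 5.30 to 5.91 on the log2 scale. Of 17 markers of other cell types on the array, 16 were above background on 0 arrays. The exception was miR-126-3p, a marker of endothelial cells, which was above background on 20 of 22 arrays with levels from -4.20 to -2.10, and its part in the members' values was not tested.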

How the data were processed

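Per the file headers, the array files hold intensities per spot that Agilent Feature Extraction 10.7.3.1 corrected for background, without normalisation between arrays, together with the scanner's flags (other values). The deposited value table holds log2 values that the authors made with R 2.15.2, per the submitters' processing notes by steps not given in the sources used here. Its columns held the same values at the 200 highest ranks, the only ranks compared, and share a minimum of 0.5 before the log.

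Of 49880 non-control spots (3105 probes) per array, outlier spots were left out, 0 were saturated, and spots of a probe were averaged. Signals were divided by the 75th percentile of the 281 probes above background on all arrays, which ranged from 188 to 605 units, and floored. Differences and SEs came from limma 3.58.1 in R 4.3.3 over 6 groups, with Benjamini-Hochberg adjustment over 290 miRNAs and a threshold of 0.05, and the script was tested on simulated data. The number of arrays limits the precision.

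The members, the list of mates and the tests were chosen with earlier results of these data known. Named were all members, mates above background on at least 3 arrays, and for each member above background on every array of a group the 3 miRNAs most like it. miR-351-3p, miR-6239 and the mates named at 0 arrays were added after their values were seen. Alternatives were names, scaling, background correction, floor, probe choice, filter, outlier spots, blocks, controls, pooled doses and left-out arrays.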

Additional observations from a re-analysis of the deposited data

Results flagged for a closer look

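The sixth DMSO array of 48 h stood apart for 5 of the 7 members. It read -3.69 for miR-452-5p, where the other 5 DMSO arrays lay between -4.41 and -4.32, -4.35 for miR-450a-2-3p, -4.40 for miR-1931, -3.70 for miR-1945 and -4.01 for miR-6418-5p, where the other 5 were at the floor of -4.41. The first DMSO array of 24 h read -4.14 for miR-450a-2-3p, with the other 4 at the floor, although it was not well above background there. Its unscaled signal of 10.69 lay below the 12.6 and 11.4 of 2 other DMSO arrays of 24 h, and its scaling percentile of 188 was the lowest of the 22 arrays. In each case the gap to the nearest other array exceeded Dixon's critical value, which chance passes in about 1 of 20 groups, and 6 of the 9 member and group pairs screened did so. Where all other arrays are tied at the floor, any value above it passes. The sixth DMSO array had 334 miRNAs detected, the most of its group, and its part in these values was not tested. By the names of the value table that array was of the other control series than the arrays of the high dose. The part of the control series was not tested either.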

How the results depend on the processing

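The difference of the 7 members between 50 µM and DMSO at 48 h (median 0.94) stayed above 0 under every alternative run, but its size followed the processing: it was 0.22 with the names of the array files, 0.45 with scaling over all probes, 1.46 with quantile normalisation, 0.30 with normexp and quantile normalisation, 3.69 in the value table, 1.96 with the floor divided by 4 and 0.47 with both doses pooled. The count of separate members was 1 with the names of the array files in place of 7, and 6 with scaling over all probes, either quantile setting or the value table. For 10 µM at 48 h (median -0.00) it was 0.73 with the names of the array files, 0.15 with quantile normalisation, -0.28 in the value table and 0.27 with the floor divided by 4. For 50 µM at 24 h (0.09) it was 0.00, 0.65, 2.17 and 0.90 in the same order, and for 10 µM at 24 h (0.00) it was 0.66 in the value table. With the names of the array files miR-452-5p turned to -0.018 at 50 µM and 24 h. The floor sets the size for members at background; other causes were not tested. Leaving out single arrays gave medians of 0.88 to 1.09 for 50 µM at 48 h and -0.00 to 0.00 for 10 µM at 48 h. At 24 h they were 0.09 to 0.15 for 50 µM and 0.00 to 0.02 for 10 µM. The count of separate members stayed at 7 of 7, but leaving out an array cannot lower it, so it shows nothing. Mates called ranged from 0 to 1. Slide as a block gave 0.93, and the replicate block on the labels' experiment number gave 0.94 at 50 µM and 48 h and changed no call. In their deviations from the group means, same-numbered arrays correlated at over 0.1 in 30 of 40 pairs, with a range of -0.15 to 0.69. Differently numbered arrays were not compared, so whether the numbers mark shared experiments was not tested. The main fit did not take the numbers as pairs. Not well above background means only a bound for all members except miR-6378.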
